A study of Rattus norvegicus with 6 samples.

Results

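Elastic fibres give the vessel wall its recoil. Elastin, secreted as soluble tropoelastin, is laid down on a scaffold of fibrillin microfibrils and is then cross-linked by lysyl oxidase, with fibulins holding the parts together. The same microfibrils store TGF-beta, because latent TGF-beta binding proteins tether the inactive growth factor to fibrillin until it is released. Smooth muscle cells are the main makers of this matrix in the arterial media. The 10 genes described here were chosen by symbol, with earlier results of these data known: Eln, Fbn1, Fbn2, Mfap5, Fbln2, Fbln5, Ltbp1, Ltbp2, Ltbp3 and Lox. All 10 were among the 18631 genes listed, and all 10 were among the 13423 that passed the filter on low counts.

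RNA with a poly(A) tail was sequenced from rat vascular smooth muscle cells in 6 libraries: 3 with the genotype label MIAT knockdown, and 3 titled Scr whose genotype label is WT, called Scr control here. MIAT is a long noncoding RNA. The protocol text, which is the same for every library, gives siRNAs plus antisense oligonucleotides at 50 nM in total for 72 h, and does not say what the control cells were given. Whether the 3 libraries of a group were separate cultures is not stated, so the tests may rest on technical spread alone. Miat itself was not analysed here, and the labels were therefore not checked against the targeted gene.

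Total counts per library ran from 17793811 to 20121161, and the 10 genes together took 0.472% to 0.611% of them. Of the smooth muscle markers, Acta2 and Tagln, a smooth muscle actin and an actin-associated protein, stood at 1869 and 2803 FPKM (counts scaled by gene length and library total) on average in the control libraries, whereas the muscle intermediate filament gene Des, at 0.213 FPKM, was close to absent. Libraries with the same number in their titles varied together, so results are given both from the test that ignores the numbers and from the one that treats each number as a block. The fit without the block was planned as the main one, because the labels do not state that equal numbers share a culture. It called 0 genes in edgeR, so every rise or fall named here rests on the alternative fit. A gene is said to have risen or fallen where edgeR's quasi-likelihood test with the block gave an adjusted p under 0.05.

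With the block, 6 of the 10 genes fell in the MIAT knockdown libraries, 0 rose and 4 did not pass. Those that fell were Fbn1, which encodes the main microfibril protein fibrillin-1, the fibulin genes Fbln2 and Fbln5, and the 3 latent TGF-beta binding protein genes Ltbp1, Ltbp2 and Ltbp3. Their decreases ran from 1.26-fold for Fbln2 to 1.45-fold for Fbn1. Of all tested genes, 21.6% were called in the same fit: 11.1% fell and 10.5% rose. The median log2 fold change of the 10 genes was -0.44, against -0.01 for all tested genes. Because the genes were chosen with earlier results of these data known, the contrast with all genes is a description. Without the block, edgeR called 0 of 10 members and 0% of all tested genes, while 4 members and 19.2% of all genes had an unadjusted p under 0.05. Directions are relative to TMM scaling: with total counts as the library size the median over all genes lay 0.107 higher on the log2 scale, and this turned the 1412 higher and 1486 lower genes of the block fit into 2822 higher and 819 lower, with each of the 6 members still lower.

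Cell type markers were measured beside these genes. In the block fit 11.1% of all tested genes fell and 10.5% rose. Of 8 smooth muscle markers, all tested, 2 fell, 0 rose and 6 did not pass, with a median log2 fold change of -0.20 and a negative value for 7 of 8. The summed level was 5262 to 7656 CPM (counts scaled to a common library size) in the knockdown libraries and 5939 to 7629 CPM in the controls. The 2 that fell, named after their values were seen, were the smooth muscle myosin gene Myh11, 1.42-fold, and the leiomodin gene Lmod1, 1.23-fold. The call of Myh11 ended with the block in DESeq2 (adjusted p = 0.0803), and that of Lmod1 without pair 1, without pair 2, with total counts and with the length correction. Of the 6 adventitial fibroblast markers, 4 of 5 tested fell (Pdgfra, Dpt, Scara5 and Dpep1), with a median log2 fold change of -0.47. The summed level was 303 to 520 CPM in the knockdown libraries against 458 to 766 CPM in Scr control. Most of that sum came from the growth factor receptor gene Pdgfra, which was 1.49-fold lower. Pi16 did not pass (log2 fold change 0.01, edgeR adjusted p = 0.967). Cd34 stood below the low-count filter and was higher in the knockdown library of each pair. Endothelial markers summed to 5.42 to 6.23 CPM against 7.63 to 10.3 CPM in Scr control, leukocyte markers to 20.6 to 24.3 against 20.3 to 30.3 CPM, and epithelial markers to 1.56 to 2.08 against 1.63 to 2.49 CPM. Of the marker genes listed, 0 had a count of 0 in all 6 libraries, and the leukocyte marker Cd3e was not analysed here. The part of the smooth muscle, fibroblast and endothelial markers in the fall of the 6 genes was not tested. In bulk RNA, fewer cells of a type and less RNA per cell cannot be told apart.

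Promoter sequence from RefSeq (GRCr8) is shown for 4 of the genes that fell, Fbn1 and the 3 Ltbp genes, because LTBP proteins associate with fibrillin microfibrils. Each run holds the 250 bases before the annotated start of the gene, 5′ to 3′ on the gene's strand, and capitals mark matches to the motifs searched. Fbn1 lies on the minus strand at chr3:133203391-133203640, Ltbp1 on the minus strand at chr6:26177302-26177551, Ltbp2 on the minus strand at chr6:110257299-110257548 and Ltbp3 on the plus strand at chr1:212458955-212459204.
Fbn1: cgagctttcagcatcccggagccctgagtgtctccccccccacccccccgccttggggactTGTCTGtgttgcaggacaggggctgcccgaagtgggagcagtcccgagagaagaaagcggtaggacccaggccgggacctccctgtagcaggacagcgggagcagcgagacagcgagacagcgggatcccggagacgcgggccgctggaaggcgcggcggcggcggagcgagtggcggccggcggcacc
Ltbp1: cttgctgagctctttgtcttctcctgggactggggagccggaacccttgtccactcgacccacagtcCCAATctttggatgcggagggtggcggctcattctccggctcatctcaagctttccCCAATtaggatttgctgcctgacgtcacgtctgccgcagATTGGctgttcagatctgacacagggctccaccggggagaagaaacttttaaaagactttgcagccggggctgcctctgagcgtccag
Ltbp2: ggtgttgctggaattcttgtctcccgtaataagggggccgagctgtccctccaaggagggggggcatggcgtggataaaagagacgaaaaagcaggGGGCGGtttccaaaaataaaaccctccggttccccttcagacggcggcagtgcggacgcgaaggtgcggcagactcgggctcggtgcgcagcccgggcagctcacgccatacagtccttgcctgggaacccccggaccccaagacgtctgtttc
Ltbp3: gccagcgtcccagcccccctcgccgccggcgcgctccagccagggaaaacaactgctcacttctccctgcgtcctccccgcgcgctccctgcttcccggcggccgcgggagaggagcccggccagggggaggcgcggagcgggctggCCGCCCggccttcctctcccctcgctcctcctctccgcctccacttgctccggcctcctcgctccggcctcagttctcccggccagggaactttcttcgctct

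The motifs were searched on both strands in the promoters of the 8 members that matched this table and of 10335 tested genes. The GC box GGGCGG was present in Ltbp2 and Ltbp3, as in Fbln2 and Fbln5, and in 59.2% of all promoters. Ltbp1 held 3 matches to the CCAAT box (letters CCAAT), which was also present in the Mfap5 promoter and in 35.8% of all promoters. Fbn1 held a match to CAGACA, a short SMAD element, on the opposite strand. That element was present in 13.4% of all promoters. The TEAD element GGAATG was found in the Fbn2 promoter alone among the 8, and in 9.90% of all. The TATA box TATAAA, the AP-1 element TGAGTCA, the E box CACGTG, the SMAD palindrome GTCTAGAC and the CArG box, which serum response factor binds, matched in 0 of 8 member promoters and in 6.57%, 3.09%, 8.19%, 0.184% and 1.25% of all. These matches describe the letters only. None of the motifs searched was present in all 6 promoters of the genes that fell.

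Levels per length, in the deposited FPKM, placed Lox highest and Eln lowest in both groups. In the control libraries the order was Lox (320 ± 41.3 FPKM, SD, n = 3), Fbln2 (290 ± 124), Mfap5 (199 ± 88.6), Ltbp2 (154 ± 22.1), Ltbp1 (95.8 ± 25.0), Fbn1 (76.6 ± 13.2), Fbln5 (33.6 ± 16.2), Ltbp3 (25.1 ± 4.81), Fbn2 (0.940 ± 0.427) and Eln (0.264 ± 0.175). The ranges of the first 4 overlapped from each gene to the next, as did those of Ltbp1 and Fbn1 and those of Fbln5 and Ltbp3. The order was the same in the knockdown libraries. There, only Lox with Fbln2, Fbln2 with Mfap5, and Fbln5 with Ltbp3 had overlapping ranges. Transcripts of Lox, Fbn1 and the Ltbp genes described were thus abundant in cells with hardly any elastin transcript, and Fbn2 was scarce too. By mean control FPKM, Lox stood at percentile 99.0 of all listed genes, Fbn1 at 95.2 and Ltbp3 at 85.7. Fbn2 stood at percentile 39.7 and Eln at percentile 30.0.

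**Figure D1:**
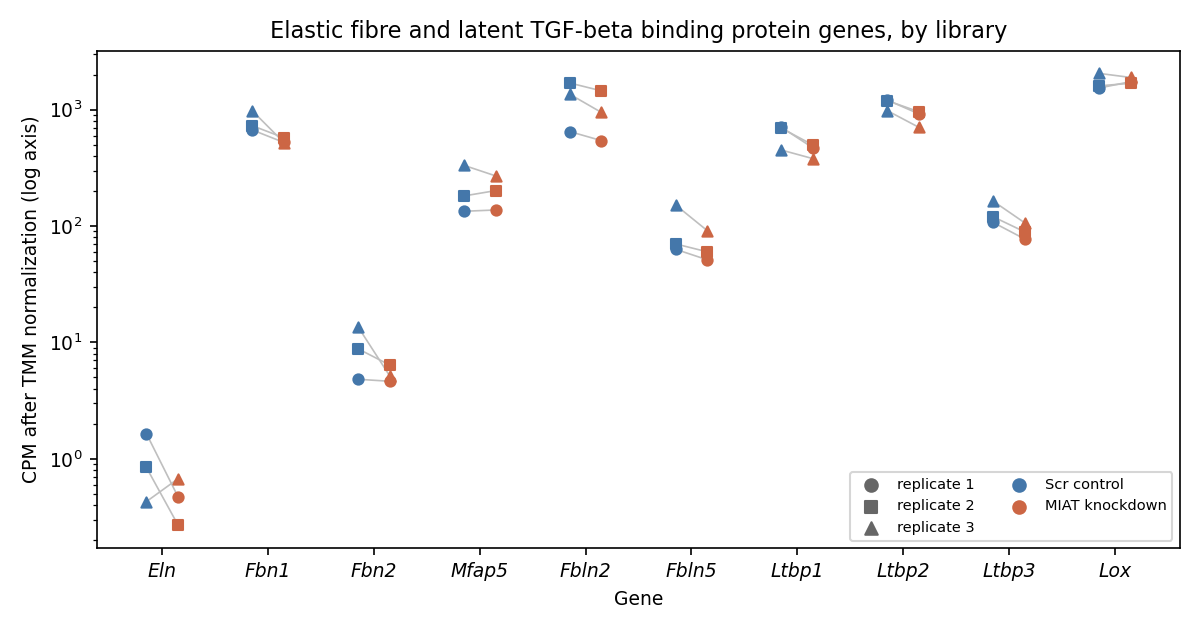
Level of each gene in each library, as CPM after TMM normalization on a log axis, with Scr control in blue, MIAT knockdown in orange, a marker shape per replicate number and a grey line joining same-numbered libraries. Eln lies between 0.268 and 1.64 CPM, while Lox lies between 1532 and 2053 CPM with the groups intermixed.

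Eln, the gene of tropoelastin, was counted 9, 5 and 13 times in knockdown libraries 1 to 3 and 29, 15 and 8 times in control libraries 1 to 3. The summed counts were 27 (exact Poisson 95% interval 17.8 to 39.3) and 52 (38.8 to 68.2), intervals that cover counting error only. In CPM these counts were 0.469, 0.268 and 0.675 against 1.64, 0.842 and 0.428. The groups overlapped, and Eln was lower in pairs 1 and 2 and higher in pair 3. It passed the filter on low counts through 3 libraries, knockdown 3 and controls 1 and 2. Its blocked log2 fold change was -0.96 (SE 0.551, edgeR adjusted p = 0.246). Without pair 3, the only pair in which Eln was higher, it was -1.74 and passed (edgeR adjusted p = 0.00637). That fit rests on the low counts of pairs 1 and 2 alone.

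Lox, the copper enzyme that oxidizes lysines of elastin and collagen for cross-linking, was measured at 1741, 1687 and 1893 CPM in the knockdown libraries against 1532, 1601 and 2053 CPM in Scr control. The knockdown values lay inside the range of the controls. The blocked log2 fold change was 0.05, with an unadjusted 95% interval of -0.11 to 0.20 (edgeR adjusted p = 0.656). It was the only positive value among the 10 genes in that fit, and within pairs 1, 2 and 3 the difference was 0.18, 0.08 and -0.12.

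Among the microfibril genes, Fbn1 stood at 523, 573 and 521 CPM in the knockdown libraries and at 670, 729 and 979 CPM in the controls. The groups did not overlap, and the knockdown libraries were close together while control library 3 stood above the other two. The blocked log2 fold change was -0.54 (SE 0.104, edgeR adjusted p = 0.0101; without the block -0.56, adjusted p = 0.138). Without pair 3 it was -0.35, still past the threshold, and with the block in DESeq2 the call ended (-0.55, adjusted p = 0.0888). DESeq2 without the block called Fbn1 alone of the 10 genes (adjusted p = 0.0174).

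Fbn2, which encodes fibrillin-2, the microfibril protein of development, was far less abundant, at 4.63, 6.39 and 5.14 CPM against 4.82, 8.81 and 13.6 CPM. The groups overlapped, and the log2 difference was -0.056, -0.46 and -1.40 within pairs 1, 2 and 3. Its blocked log2 fold change of -0.68 (SE 0.237) did not pass in edgeR (adjusted p = 0.0735). Without pair 3 the value was -0.29. Of the 9 alternatives run with the block, Fbn2 passed in 3: without pair 1 (-0.94), in limma-voom (-0.76) and without the low-count filter (-0.67).

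Mfap5, which encodes a microfibril-associated glycoprotein, was measured at 137, 202 and 270 CPM in the knockdown libraries against 134, 181 and 333 CPM in Scr control. In each group library 1 was lowest and library 3 highest. The difference with the block was -0.04 on the log2 scale (unadjusted 95% interval -0.23 to 0.15, edgeR adjusted p = 0.772). Its sign turned with total count scaling, where the value was 0.068.

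The fibulins join elastin to microfibrils and to cell surfaces. Fbln5, whose product binds both elastin and integrins, was at 51.3, 60.0 and 91.3 CPM in the knockdown libraries against 63.2, 70.3 and 152 CPM in Scr control. The groups overlapped although each pair was lower in the knockdown. The blocked log2 fold change was -0.43 (SE 0.0957, edgeR adjusted p = 0.0162). The size of this fall leaned on control library 3: it was -0.27 without pair 3, and without that library alone the unblocked value was 0.018.

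Fbln2 differed more between replicate numbers than between groups. It was at 542, 1452 and 947 CPM in the knockdown libraries against 649, 1696 and 1359 CPM in Scr control, with library 1 lowest and library 2 highest in both. Within pairs the knockdown was lower by 0.26, 0.22 and 0.52 on the log2 scale. The block fit gave -0.33 (SE 0.0698, edgeR adjusted p = 0.0128), a call that ended without pair 2 (-0.39, adjusted p = 0.0694). Without the block the adjusted p was 0.724.

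The latent TGF-beta binding proteins aid the secretion of latent TGF-beta and anchor it in the matrix, while LTBP2, which does not bind latent TGF-beta, is mainly a partner of fibrillin and fibulin-5. All 3 of the family among the 10 described genes fell. Ltbp4, a scarce member of the family outside the 10, did not pass. It was at 2.71 ± 0.642 CPM in the knockdown libraries against 3.30 ± 1.22 CPM in Scr control (SD, n = 3). Its blocked log2 fold change was -0.26 (edgeR adjusted p = 0.449). Ltbp3 was at 77.4, 89.1 and 107 CPM in the knockdown libraries against 108, 120 and 164 CPM in Scr control, so the groups were separated by a narrow gap. Its blocked log2 fold change of -0.51 (SE 0.0597) had the smallest edgeR adjusted p of the 10 genes, 0.00212.

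Ltbp2, the most abundant of the 3 per length, was at 920, 960 and 705 CPM in the knockdown libraries. The controls were at 1211, 1196 and 982 CPM, all above them. The block fit gave a log2 fold change of -0.40 (SE 0.0574, edgeR adjusted p = 0.00381). Ltbp2 and Ltbp3 passed in each of the 9 alternatives run with the block, as did Fbln5, for which the adjusted p reached 0.0498 without pair 2.

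Ltbp1 was at 469, 497 and 379 CPM in the knockdown libraries against 707, 694 and 450 CPM in Scr control. Control library 3 lay below 2 of the knockdown libraries, so the groups overlapped. The blocked log2 fold change was -0.44 (SE 0.0720, edgeR adjusted p = 0.00557), and the call ended without pair 2 (-0.42, adjusted p = 0.0656).

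Counted without a model, 7 of the 10 genes were lower in all 3 same-numbered pairs (the 6 that fell and Fbn2), against 28.5% of all tested genes, and 0 were higher in all 3, against 28.0%. The groups did not overlap for 3 of the 10, Fbn1, Ltbp2 and Ltbp3, all lower. Among all genes 11.8% were separated in that direction and 14.2% in the other. The largest gap within pairs was in pair 3 for Fbn1, Fbn2, Fbln2, Fbln5, Ltbp2 and Ltbp3, and in pair 1 for Ltbp1.

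**Figure D2:**
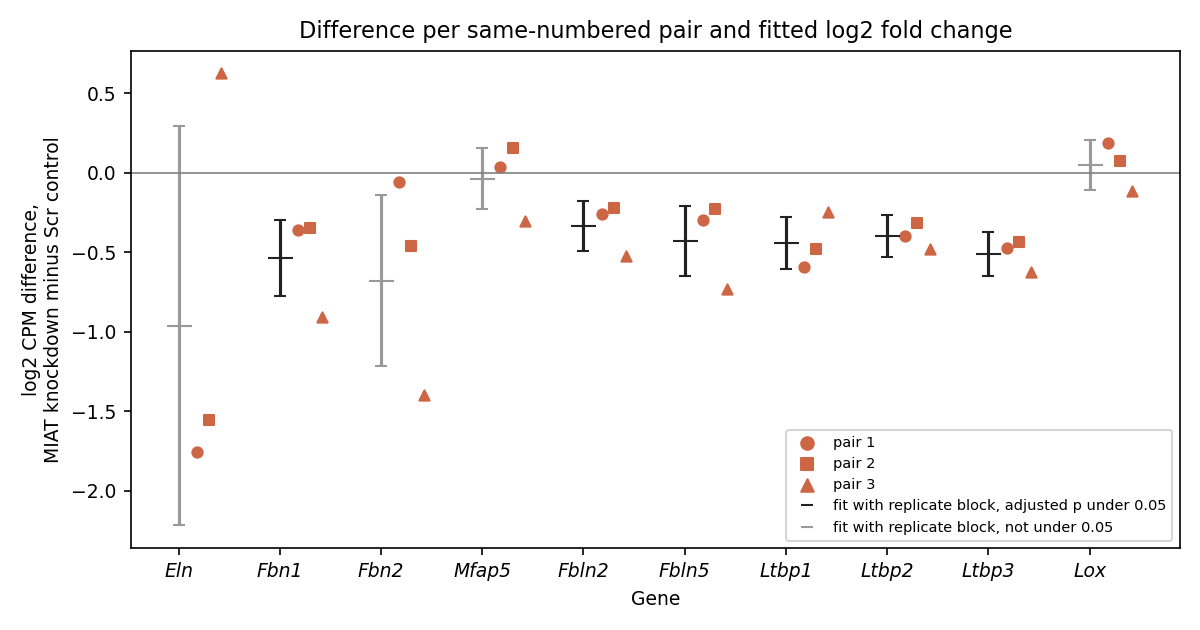
Difference in log2 CPM, MIAT knockdown minus Scr control, for each same-numbered pair (orange markers), beside the log2 fold change fitted with the replicate block and its unadjusted 95% interval (bars, black where the adjusted p was under 0.05). Black bars lie below 0 for Fbn1, Fbln2, Fbln5, Ltbp1, Ltbp2 and Ltbp3, and the widest interval is that of Eln, from -2.22 to 0.29.

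Several of the genes followed the replicate number more closely than the group. The number accounted for 95.8% of the sum of squares of log2 CPM over the 6 libraries for Mfap5, 91.3% for Fbln2, 78.6% for Fbln5 and 78.1% for Lox, against a median of 47.8% for all tested genes. For Fbn1 it accounted for 12.1% and the group for 71.0%, where the median of all genes was 25.8%. In a test of the number term of the block fit, added after these values were seen, 6 of 10 genes passed in edgeR, Fbln2, Fbln5, Mfap5, Ltbp1, Ltbp2 and Ltbp3, against 18.8% of all tested genes. The test draws on the same counts as the shares of the sum of squares, so it is no separate result. What the numbers stand for is not given.

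**Figure D3:**
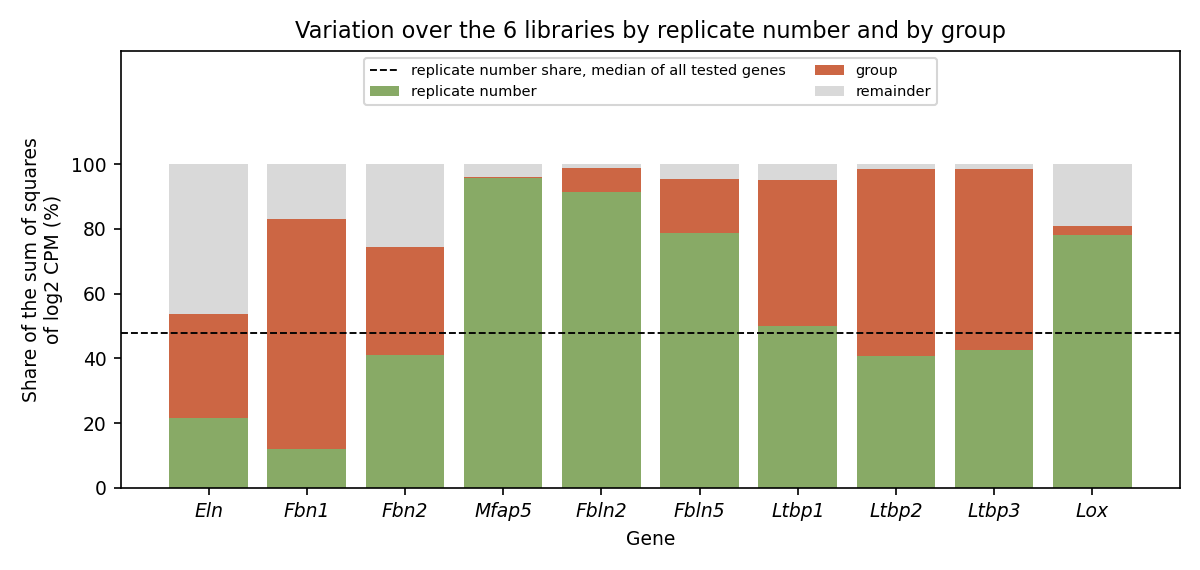
Share of each gene's sum of squares of log2 CPM over the 6 libraries that goes with the replicate number (green), the group (orange) or neither (grey), with the median number share of all tested genes as a dashed line. Mfap5 is almost wholly green at 95.8%, while the group takes 71.0% for Fbn1.

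The direction of that variation also separated the genes. Libraries numbered 3 were highest for Fbln5, Mfap5, Ltbp3 and Lox and lowest for Ltbp1 and Ltbp2 in both groups. Over the 6 libraries Pearson's r of log2 CPM was 0.94 between Ltbp1 and Ltbp2, 0.90 between Fbln5 and Ltbp3, 0.90 between Fbn1 and Ltbp3, and -0.83 between Ltbp1 and Lox. These 6 points share the groups and the numbers, and the values are a description.

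Ratios of FPKM within a library do not depend on the scaling between libraries. The ratio of Fbn1 to Lox was 0.157, 0.178 and 0.144 in the knockdown libraries against 0.229, 0.238 and 0.249 in Scr control, with no overlap. That of Ltbp3 to Lox was 0.0461, 0.0548 and 0.0585 against 0.0729, 0.0781 and 0.0830, again with no overlap. Lox was the only described gene with a positive blocked log2 fold change, so lower ratios to it are no separate result. The share of other gene pairs with separated ratios was not computed. The ratios to Lox of the other 4 genes that fell, Ltbp1, Ltbp2, Fbln2 and Fbln5, overlapped between the groups. The ratio of Ltbp2 to Ltbp1, at 1.69 ± 0.0471 and 1.65 ± 0.236 (SD, n = 3), and that of Ltbp1 to Ltbp3, at 4.06 ± 1.06 and 4.03 ± 1.62, overlapped between groups. With 3 libraries against 3, an exact two-sided permutation test of a ratio could not go below p = 0.10, and none was run.

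Gene length moved with the fold changes. Of the 1343 longest tested genes (8259 bases or more as implied by the deposited FPKM), 26.0% fell with the block and 4.54% rose. Fbn1, at 9922 bases, and Fbn2, at 9197, belong to this group. With a correction for length each of the 6 genes was still called, and the log2 fold change of Fbn1 was -0.38 and that of Ltbp2 -0.29. Mfap5, the shortest of the 10 at 1035 bases, was at -0.14 after the correction.

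The genes most like Eln, Fbn1 and Lox over the 6 libraries were sought among 10469 others with a mean of at least 5 CPM. The highest Pearson's r of log2 CPM for Fbn1 was with Sort1, Zbtb37 and Nek9 (0.996, 0.995 and 0.991). For Lox it was with Mapk8, Il20rb and Keap1 (0.996, 0.995 and 0.991), and for Eln with Bbs4, Sez6l and Pced1a (0.995, 0.990 and 0.990). With 6 points and so many candidates, such values arise readily, and they are a description of these libraries.

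A list of 19 other genes of the elastic fibre and its microfibrils was examined, of which Mmrn1 was not analysed here and 3 stood below the low-count filter. Of 15 tested, 7 fell, 8 did not pass and 0 rose in the block fit, with a median log2 fold change of -0.38, where 11.1% of all tested genes fell. The large proteoglycan gene Vcan fell 1.38-fold, from 2478 ± 269 to 1797 ± 188 CPM (SD, n = 3), and the small proteoglycan gene Bgn 1.38-fold, from 3486 ± 457 to 2530 ± 309 CPM. Efemp2, which encodes fibulin-4, needed for elastic fibre assembly and for lysyl oxidase activity, fell 1.30-fold. The groups did not overlap for any of these 3, which were picked as the largest changes past the threshold. Among all tested genes 11.8% were separated in that direction. With the length correction Vcan was at a log2 fold change of -0.27.

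Of 10 genes of the lysyl oxidase family and of proteins that mature or position the enzyme, 5 fell, 1 rose and 4 did not pass (median -0.28). The shares of all tested genes were 11.1% for a fall and 10.5% for a rise. Fn1, which encodes fibronectin, a scaffold for the proteolytic activation of pro-lysyl oxidase, fell 1.47-fold, from 9566 ± 1164 to 6504 ± 848 CPM. Atp7a, the copper pump that loads the enzyme, fell 1.41-fold, a call that ended without pair 2 (log2 fold change -0.53, adjusted p = 0.0504). The procollagen C-proteinase family gene Tll1 fell 1.35-fold, and this call ended with the length correction (-0.17, adjusted p = 0.0866). The gene that rose was the paralog Loxl4, 1.21-fold, chosen after its value was seen. Its call ended without pair 1 (log2 fold change 0.23), without pair 2 (0.22), and with the block in DESeq2 (0.26) or with DESeq2 size factors (0.26).

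Among 12 tested elastin-degrading proteases, their inhibitors and subunits of the elastin receptor, 7 fell, 0 rose and 5 did not pass (median -0.32), where 11.1% of all tested genes fell and 10.5% rose. The members that fell were proteases (Mmp2, Mmp14 and Ctsl), inhibitors (Timp2 and Timp3) and subunits of the elastin receptor (Glb1 and Ctsa). Mmp2, a gelatinase that also cleaves elastin, fell by 0.59 on the log2 scale, from 1922 ± 399 to 1288 ± 327 CPM. Timp3, a metalloproteinase inhibitor held in the matrix, fell 1.49-fold, and Glb1, the lysosomal galactosidase gene whose splice product is the elastin binding protein, 1.34-fold.

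For TGF-beta itself, 26 genes of ligands, activation, receptors and SMADs were tested, of which 6 fell, 2 rose and 18 did not pass (median -0.07). Over all tested genes 11.1% fell and 10.5% rose. Per length, among the ligand genes (chosen after their values were seen), Tgfb3 was the most abundant, at 119 ± 7.91 FPKM in Scr control and 110 ± 12.5 FPKM in the knockdown libraries. It fell 1.17-fold with the block, a call that ended without pair 1, without pair 2, with total counts and with the length correction. Tgfb1, at 57.8 ± 11.1 and 60.3 ± 6.13 FPKM, overlapped between the groups, as did Tgfb2 at 17.9 ± 4.38 and 17.1 ± 1.30 FPKM. The latency-activating glycoprotein gene Thbs1 fell 1.42-fold, from 21260 ± 211 to 14947 ± 800 CPM, and the co-receptor gene Eng 1.32-fold. The groups did not overlap for Thbs1, as for 11.8% of all tested genes in that direction. Smad7, an inhibitor of the pathway, was at 163, 88.1 and 70.3 CPM in the knockdown libraries and 51.9, 35.5 and 29.9 CPM in the controls, a 2.65-fold rise.

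Genes that TGF-beta is known to induce did not move one way. Of 16 tested, 4 rose, 1 fell and 11 did not pass (median 0.04), where 10.5% of all tested genes rose and 11.1% fell. Smad7 and Skil stand in this list and in the preceding one, where they were the 2 that rose. The risers were Smad7, Bhlhe40 (1.26-fold), Skil and Pmepa1, the last 2 named after their values were seen. The calls of Skil and Pmepa1 ended without pair 1, without pair 2 and with the block in DESeq2, that of Skil also with DESeq2 size factors and that of Pmepa1 with the length correction. The one that fell was the collagen gene Col1a1, at 13819 ± 4218 CPM in the knockdown libraries against 20093 ± 10798 CPM in Scr control. Its log2 fold change was -0.46 with the block and -0.28 without pair 3, and its call ended without pair 2 (-0.57, adjusted p = 0.0601), with the length correction (-0.37, adjusted p = 0.0654) and with the block in DESeq2 (-0.47, adjusted p = 0.444).

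**Figure D4:**
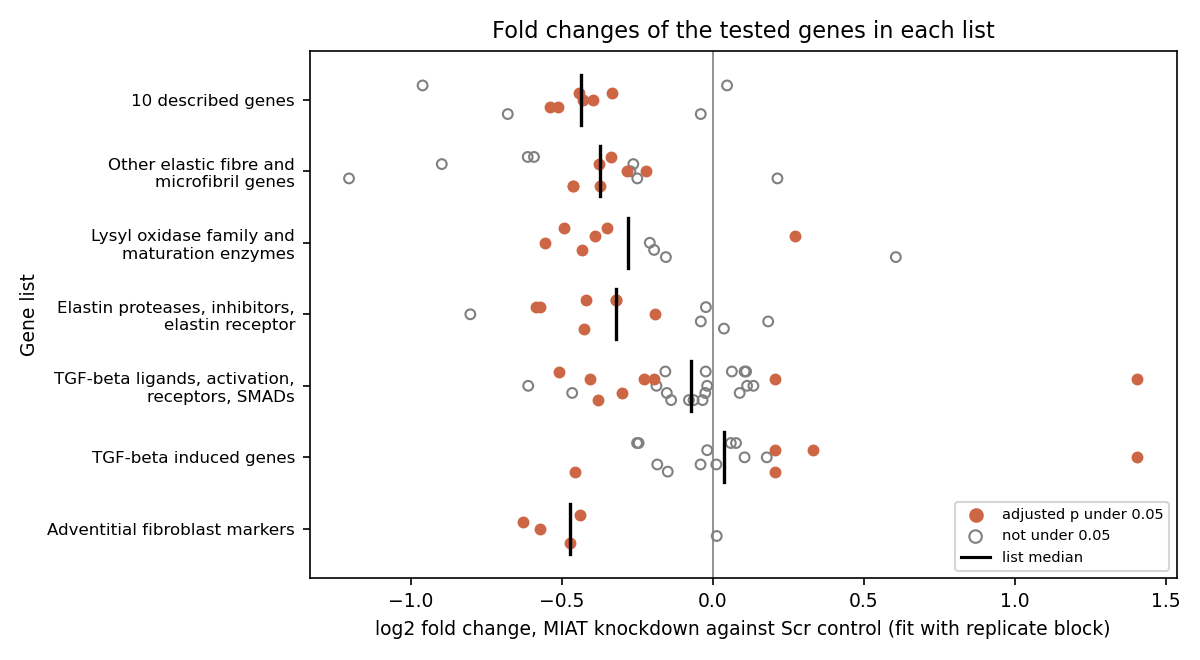
Log2 fold change with the replicate block for each tested gene of 7 lists, filled where the edgeR adjusted p was under 0.05, with the list median as a black line. The described genes centre on -0.44 and the other elastic fibre genes on -0.38, while the TGF-beta induced genes centre on 0.04, with Smad7 at 1.41.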

How the data were processed

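The authors deposited raw counts per gene symbol and FPKM values for 6 poly(A) RNA libraries. All deposited FPKM values above 0 (100%) equal count over length over library total (relative tolerance 1e-06), which gives the lengths used. The sources used here name no aligner, counter, strand setting or build. Reads shared with overlapping or antisense genes therefore cannot be told apart.

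Counts were filtered with filterByExpr, TMM-normalized and tested with edgeR 4.0.16 (R 4.3.3), quasi-likelihood, Benjamini-Hochberg over all tested genes at 0.05. The comparison was fitted without a block, which was the planned main fit, and again with library number (1, 2 or 3) as a block. After removal of group means, same-numbered libraries correlated at 0.67, 0.49 and 0.56 across genes, so the numbers were taken to pair the libraries. This comes from the titles and the data, not from a stated batch. Correlations for other pairings of the libraries are not given here, and the pairing was judged on the same counts that were then tested. Residual degrees of freedom were 4 and 2, and the biological coefficient of variation 19.7% and 8.09%. Within-group chi-square per degree of freedom was 21.7 to 89.9, so no library was a copy. Pair differences use log2 CPM with a prior count of 0.5. Alternatives used DESeq2 1.42.0, limma 3.58.1 (voom, and trend on log2 FPKM plus 1 or 0.1), other scalings and filters, a loess length correction (span 0.5), and left-out libraries or pairs. The scripts were tested on simulated data.

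The members and lists were chosen with earlier results of these data known. The naming rule took up to 3 genes per list, those with the largest fold past the threshold and a mean of at least 5 CPM, and the 3 genes most like Eln, Fbn1 and Lox. Outside it, and chosen after their values were seen, are Loxl4, Ltbp4, Skil, Pmepa1, Mmp9, the 3 TGF-beta ligand genes, the markers named and genes that were not tested. RefSeq (GRCr8) gave promoters for 8 of 10 members. Its coordinates may differ from those of the authors' build, which is not named.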

Additional observations from a re-analysis of the deposited data

How the results depend on the processing

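Without the block, edgeR called 0 genes and 0 members (2576 genes at an unadjusted p under 0.05), DESeq2 called 699 genes and 1 member, and limma-voom, limma on FPKM, the other scalings and filters and the length correction called 0 of both. With the replicate block the counts were 2898 genes and 6 members. They were 1590 and 5 in DESeq2, 3051 and 7 in limma-voom, 2961 and 6 with DESeq2 size factors, 3641 and 6 with total counts, 3128 and 7 without the low-count filter, and 2317 and 6 with the length correction. Leaving out single libraries without the block gave 0 genes and 0 members each time, and leaving out a pair with the block gave 736 genes (without pair 2), 1195 (without pair 1) and 4124 (without pair 3), with 4, 7 and 7 members. The cause of these differences was not tested. A left-out pair leaves less data, and the number of genes called was lower without pair 1 or pair 2 and higher without pair 3.

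The unblocked member median of -0.48 became -0.27 and -0.32 on log2(FPKM + 1) and log2(FPKM + 0.1), and -0.37 with total counts. With the block it was -0.44, -0.33 with total counts and -0.36 with the length correction. It ranged from -0.53 to -0.33 over left-out libraries without the block and from -0.48 to -0.32 over left-out pairs with it. The sign changed for 3 of the 10 genes. Mfap5, at -0.090, was 0.070 and 0.071 on the FPKM scales, 0.030 with total counts and 0.068 with total counts and block, and ranged from -0.35 to 0.37 over left-out libraries or pairs. Lox, at 0.037, ranged from -0.047 to 0.18, and Fbln5, at -0.49, from -0.77 to 0.018. The filter of 1 CPM in all 6 libraries removed Eln, whose 5 to 29 counts per library limit what can be said of it.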

Other observations

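Among the endothelial markers, Kdr, a receptor gene for VEGF, was the member that fell, from 4.58 ± 2.87 to 2.25 ± 1.32 CPM (SD, n = 3; log2 fold change -1.02, edgeR adjusted p = 0.0148 with the block). This call ended without pair 1 (-0.94, adjusted p = 0.139) and without pair 2 (-1.15, adjusted p = 0.0731), and the gene was named after its value was seen. The groups overlapped, since libraries numbered 3 were lowest in both. Mmp9, a gelatinase gene likewise chosen after its values were seen, was at 5.91 ± 5.45 CPM in the knockdown libraries against 12.9 ± 17.3 CPM in Scr control, with a log2 difference of -2.59, -1.78 and 1.77 in pairs 1, 2 and 3, and did not pass (edgeR adjusted p = 0.467 with the block). Mfap2, Emilin3 and Thsd4, other microfibril genes, stood below the low-count filter and were not tested.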
